A study of Mus musculus with 23 samples.

Results

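The quadriceps of mice bearing KPC pancreatic tumors was compared with the quadriceps of mice without a tumor, across every gene in the deposited quadriceps count table. The members are the 7 libraries that the labels assign to these groups, 4 KPC and 3 no tumor, of 23 libraries in the series, and each library was made from the muscle of a separate mouse. All mice were male C57BL/6J mice aged 8 weeks at surgery. The no tumor mice had sham surgery and the KPC mice received tumor cells in the pancreas. The KPC line came from a genetic mouse model of pancreatic cancer driven by Pdx1-Cre, with mutant Trp53 among its alleles, and the line used was a single selected clone that had also received a CRISPR/Cas9 plasmid with a null guide, so the KPC group stands for 1 clone. All groups were euthanized together when one of them reached its humane endpoint. The 4 libraries from mice with KPC IL6KO tumors entered the fit only to help estimate the spread between mice. A further no tumor muscle sample, set aside by the authors as an outlier, was not analysed here.

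Skeletal muscle keeps its mass through a balance between protein synthesis, which runs through the insulin, IGF and mTOR pathway, and breakdown by the ubiquitin-proteasome system and by autophagy. In cachexia, the wasting that accompanies many cancers, breakdown exceeds synthesis. Muscle ubiquitin ligases tag contractile proteins for the proteasome, and FOXO transcription factors, glucocorticoids and inflammatory cytokines are known to control the genes of these pathways.

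Library totals ran from 19259763 to 53188659 counts in the no tumor mice and from 54968680 to 74907810 in the KPC mice, so the KPC libraries were deeper. In these libraries, 3 counts correspond to between 0.0462 and 0.154 CPM (counts scaled to library size after the trimmed mean of M values), and values at that level cover counting error only. Myofiber markers dominated every library, with a summed level of 8 markers of 151000 to 188000 CPM in the no tumor mice and 119000 to 138000 CPM in the KPC mice. Other cells in the tissue differed between the groups. Of 8 markers of fibro-adipogenic progenitors, the resident matrix-producing fibroblasts of muscle, 7 were down-regulated and none was up-regulated. Their summed level was 826 to 914 CPM in the no tumor mice against 71.7 to 105 CPM in the KPC mice. The collagen genes Col1a1 and Col3a1 are among these markers, and Col3a1 alone gave 383 to 445 CPM of the sum without a tumor. All 6 tenocyte markers were down-regulated, with sums of 190 to 245 CPM against 20.5 to 81.9 CPM, and so were 5 of 7 Schwann cell markers, with sums of 96.8 to 181 CPM against 34.8 to 88.4 CPM. Among 8 neutrophil markers, 4 were in the table, and the defining marker Ly6g was not. All 4 were up-regulated, with sums of 0.359 to 0.779 CPM in the no tumor mice against 4.5 to 21.8 CPM in the KPC mice. Only 3 to 22 genes had 0 counts in each of these libraries, so the table appears limited to expressed genes. Markers this low without a tumor may be in it only through the KPC libraries. Their calls up were then partly set by being in the table. Only 2 of 6 erythroid markers were in the table, Alas2 and Slc4a1. Both were up-regulated, with sums of 1.95 to 2.61 CPM in the no tumor mice against 6.15 to 20 CPM in the KPC mice. Of 8 macrophage markers 1 was up-regulated and 2 were down-regulated. Sums for the 7 adipocyte markers were 1260 to 3450 CPM in the no tumor mice and 415 to 1990 CPM in the KPC mice. No T cell marker was in the table, so T cells could not be followed. In whole muscle, fewer cells of a type and less RNA per cell cannot be told apart.

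A gene was called up-regulated or down-regulated in KPC muscle when its false discovery rate (FDR, the Benjamini-Hochberg adjusted p of the edgeR quasi-likelihood test over all genes tested) was at most 0.05 and its fold change (FC) at least 1.5. All log2 FC values are KPC relative to no tumor. The standard error (SE) is the absolute log2 FC divided by the square root of the F statistic of the test. By this rule 26.7% of the 12831 genes tested were called up and 29.0% were called down, and these shares are the background for every count below. The CPM values of the groups did not overlap for 65.3% of all genes tested. Large changes were more often falls, as 802 genes fell at least 4-fold and 494 rose at least 4-fold, and 85 fell and 53 rose at least 16-fold. Direction went with expression level. The lists below were not matched for level, and the part of level in their counts was not tested. With the genes cut into 3 equal bins by mean level, 11.1% of the lowest bin were called up and 48.2% down, of the middle bin 25.8% and 26.6%, and of the highest bin 43.3% and 12.2%. Genes called up held 17.3% to 17.7% of all counts in the no tumor libraries and 36.7% to 46.2% in the KPC libraries, and genes called down held 28.8% to 29.2% and 8.96% to 13.3%. Among called genes the largest gain in mean CPM was that of a ubiquitin ligase, Trim63, and the largest loss that of skeletal muscle actin, Acta1.

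**Figure D1:**
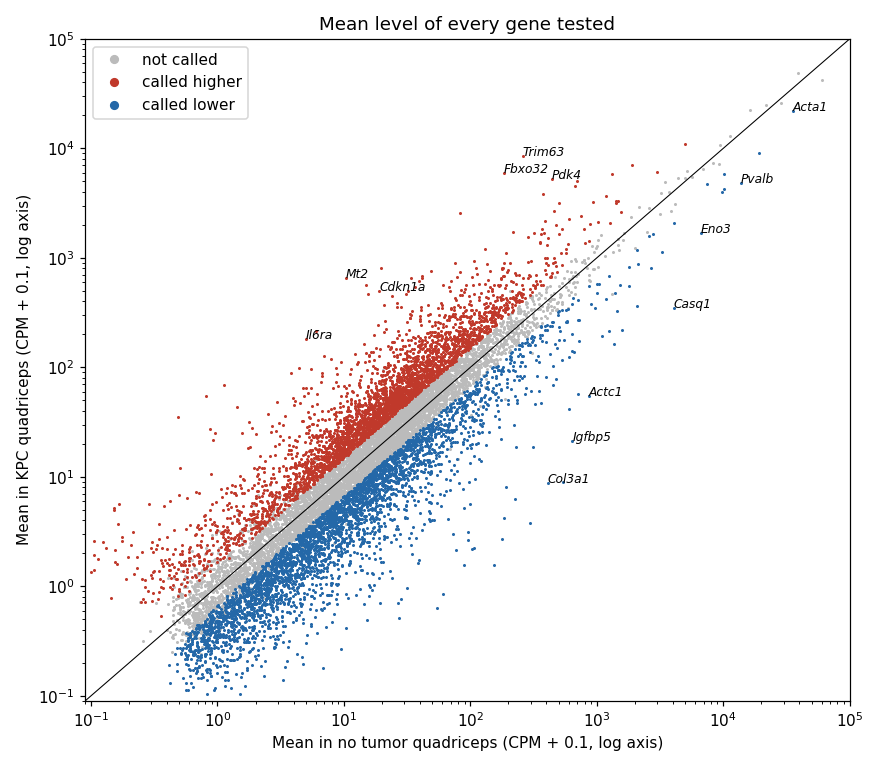
Mean level of each of the 12831 genes tested in no tumor muscle (horizontal axis, CPM + 0.1, n = 3) and KPC muscle (vertical axis, CPM + 0.1, n = 4), both on log axes, with the line of equal level. Red points were called higher in KPC and blue points lower; Trim63 and Fbxo32 lie far above the line of equal level, and Col3a1 and Igfbp5 fall far below the line.

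The genes were grouped into 60 lists by function, which together held 3252 of the genes tested. The lists with the highest median log2 FC were glucocorticoid-induced genes (2.304), proteasome subunits (1.551) and ribosome biogenesis (1.044). The lowest medians were those of collagens (-2.414), other matrix proteins (-1.589) and interferon-induced genes (-1.466). The median over all genes tested was -0.0338. A list in which the shares called up and down are near 26.7% and 29.0%, such as the 313 zinc finger genes with 91 up and 93 down, does not stand out from the table as a whole.

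**Figure D2:**
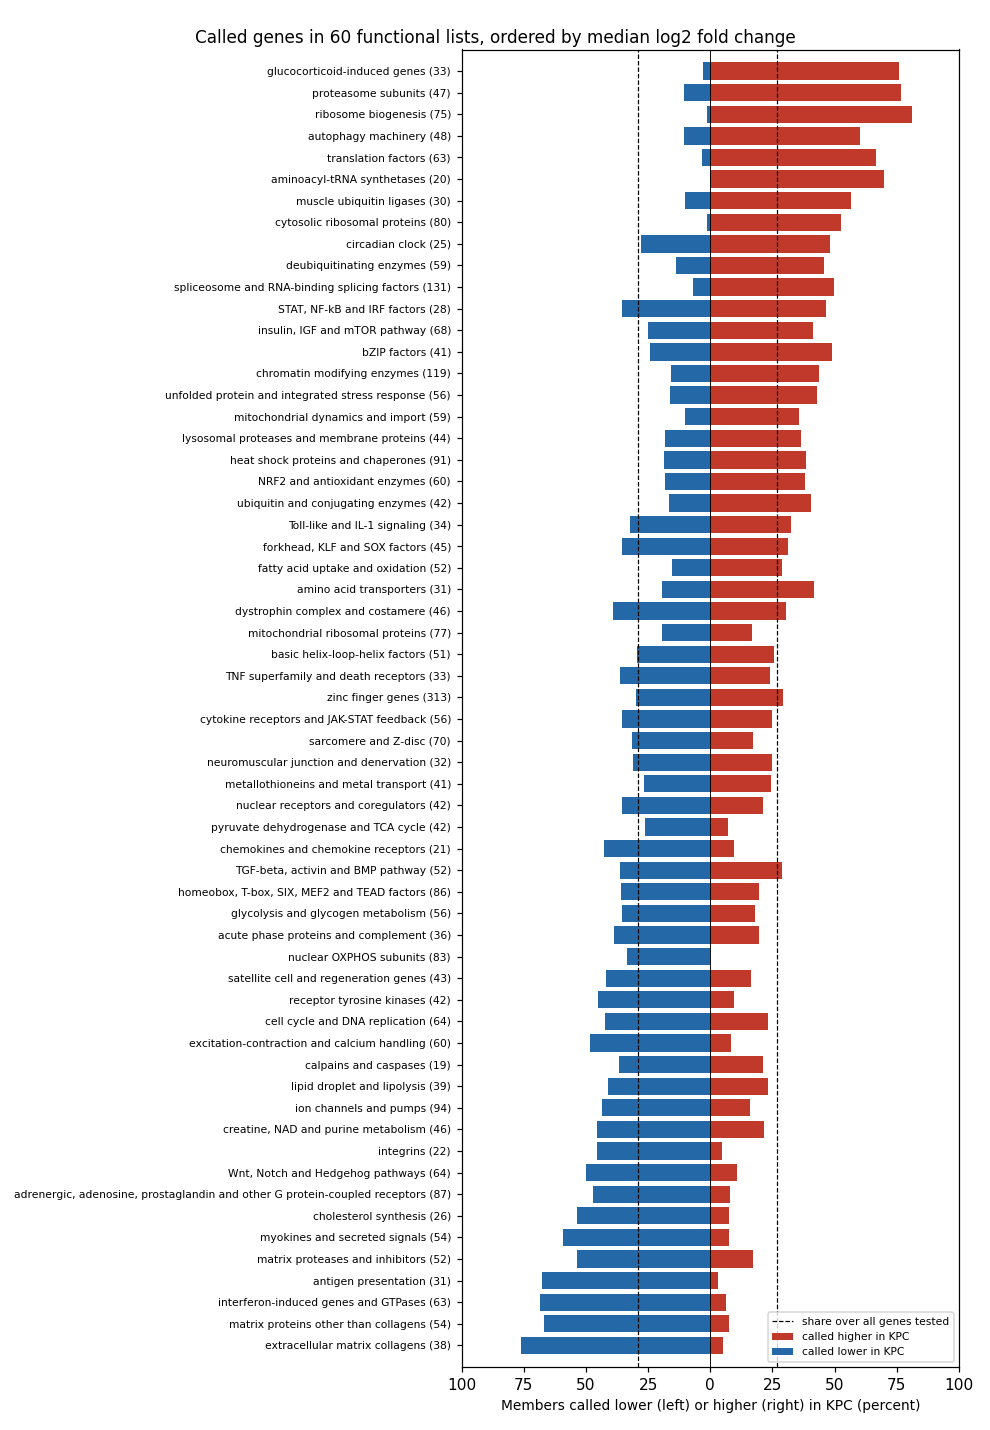
Share of each list's members called higher (red, right) or lower (blue, left) in KPC quadriceps, in percent, with the number of members in the table in parentheses and lists ordered by median log2 FC. Dashed lines mark the shares over all genes tested, 26.7% up and 29.0% down; proteasome, ribosome biogenesis and translation lists reach far past the right line, and collagen, matrix, interferon and antigen presentation lists far past the left line.

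Genes of protein breakdown were among those most changed in KPC muscle. Trim63 encodes MuRF1, a ubiquitin ligase that targets thick filament proteins, and lies on chromosome 4 (134315120 to 134329629, plus strand, mm10). It was measured at 217, 210 and 349 CPM in the 3 no tumor mice and at 11200, 6920, 7310 and 8700 CPM in the 4 KPC mice. The groups were far apart, at a 33-fold difference (log2 FC 5.04 ± 0.37, FDR 1.51e-06). Fbxo32, which encodes atrogin-1, another muscle-specific ligase component, stood at 177, 146 and 226 CPM without a tumor and at 7740, 5220, 5580 and 5140 CPM with a KPC tumor (log2 FC 5.02 ± 0.44, FDR 3.64e-06). These genes together with Fbxo30, the ligase subunit MUSA1 (log2 FC 2.17 ± 0.18, FDR 2.78e-06), were part of a list of 30 muscle ubiquitin ligases of which 17 were called up and 3 down (median log2 FC 0.849). The list took 0.405% to 0.441% of counts in no tumor muscle and 1.8% to 2.36% in KPC muscle. Its 3 falls were Fbxl22, Trim32 and Trim55, named because the count is small; Trim32, a ligase for thin filament proteins, had log2 FC -1.38 ± 0.19, FDR 6.21e-05.

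In all 19 pairs of a gene and a motif were searched for printing, of which 16 had a promoter in the RefSeq table; 11 of the 16 held no match of the paired motif, among them 5 proteasome or p62 genes (Psmd11, Psma7, Psmd4, Psmc4 and Sqstm1) paired with the antioxidant response element, 3 genes paired with the E-box, Psmb9 with the interferon element and Il6ra and Lcn2 with the STAT element. The 4 promoters printed here and further on were picked from the 5 with a match after the matches were seen, so a match in them says nothing about how often such genes hold one. The promoter of Trim63 is shown because that gene had the largest gain in mean CPM of all called genes. It holds the half-sites ACANNNTGT of the glucocorticoid receptor element once (capitals, both strands searched, RefSeq sequence, GRCm38.p6, chr4:134314870-134315169, plus strand). These letters were found in 4.05% of all promoters of 300 bases. Shares were 4.27% for genes called up and 4.05% for genes called down. In the 2 lists that hold Trim63, they were found in 5 of 28 promoters of glucocorticoid-induced genes (17.9%) and 2 of 23 of muscle ubiquitin ligases (8.7%). The acute phase and complement list had 22.7%. These list shares were picked after they were seen.
Trim63: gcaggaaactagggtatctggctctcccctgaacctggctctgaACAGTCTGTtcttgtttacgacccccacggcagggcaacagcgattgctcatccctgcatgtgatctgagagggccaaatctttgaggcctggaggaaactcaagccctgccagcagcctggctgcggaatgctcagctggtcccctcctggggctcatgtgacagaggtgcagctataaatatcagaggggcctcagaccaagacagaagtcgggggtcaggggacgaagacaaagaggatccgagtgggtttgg

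Most of the proteasome rose, and its immune forms fell. Of 47 subunits and activators 36 were called up and 5 down, with a median log2 FC of 1.551, and the list held 0.407% to 0.431% of counts in the no tumor mice and 1.09% to 1.68% in the KPC mice. Psmd4, the ubiquitin receptor of the regulatory particle, had levels of 125, 132 and 149 CPM in no tumor muscle and of 941, 674, 1220 and 674 CPM in KPC muscle (log2 FC 2.70 ± 0.23, FDR 3.39e-06). Psmd11, a lid subunit, measured 76, 75.3 and 95.2 CPM in the no tumor mice and 535, 355, 526 and 404 CPM in the KPC mice (log2 FC 2.47 ± 0.19, FDR 1.83e-06). Core subunit Psma1 rose with log2 FC 1.68 ± 0.12, FDR 1.37e-06. The 5 members called down, named because they are few, were Psmb8, Psmb9 and Psmb10, the catalytic subunits of the immunoproteasome, and Psme1 and Psme2, the subunits of the PA28 activator, all known targets of interferon. Psmb10 stood at 12.9, 14.6 and 12.7 CPM without a tumor and at 3.05, 5.61, 2.96 and 4.63 CPM with a KPC tumor (log2 FC -1.72 ± 0.21, FDR 2.88e-05), and no KPC mouse reached the lowest no tumor mouse. Psme1 had log2 FC -1.42 ± 0.14, FDR 7.83e-06. The activator Psme4 (PA200), in contrast, rose with log2 FC 0.99 ± 0.20, FDR 0.00106.

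The polyubiquitin gene Ubb rose as well (log2 FC 2.75 ± 0.23, FDR 2.94e-06). Across 42 genes of ubiquitin and its conjugating enzymes 17 were up and 7 down; Uba7, which activates the interferon-induced modifier ISG15, fell (log2 FC -2.33 ± 0.38, FDR 0.000213). Of 59 deubiquitinating enzymes 27 were up and 8 down. Usp14, a deubiquitinase of the proteasome, rose with log2 FC 2.09 ± 0.15, FDR 1.37e-06, Usp3 with log2 FC 2.91 ± 0.20, FDR 1.22e-06, and the clock-controlled Usp2 fell (log2 FC -1.44 ± 0.20, FDR 6.63e-05).

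Autophagy genes moved in the same direction as the proteasome, with 29 of 48 called up, 5 down and a median log2 FC of 0.963. Sqstm1 (p62), the receptor that carries ubiquitinated cargo to autophagosomes, had levels of 443, 470 and 598 CPM in no tumor muscle and of 3510, 2740, 3710 and 2800 CPM in KPC muscle (log2 FC 2.66 ± 0.20, FDR 1.78e-06). Gabarapl1 and Map1lc3b, which coat the autophagosome membrane, had log2 FC 2.99 ± 0.15, FDR 3e-07 and log2 FC 2.20 ± 0.20, FDR 4.3e-06. Fam134b, a receptor for autophagy of the endoplasmic reticulum, was not in the list but was among the largest rises of abundant genes, from 71.5 to 96.6 CPM to 1890 to 3920 CPM (log2 FC 4.94 ± 0.33, FDR 1.05e-06). Trp53inp2, a known positive regulator of autophagy in muscle, went the other way: it measured 647, 583 and 578 CPM in the no tumor mice and 102, 146, 119 and 132 CPM in the KPC mice (log2 FC -2.27 ± 0.16, FDR 1.24e-06). Lysosomal genes were less one-sided, with 16 of 44 up and 8 down. Among them the protease gene Ctsl stood at 111, 107 and 120 CPM without a tumor and at 557, 453, 1380 and 430 CPM with a KPC tumor (log2 FC 2.65 ± 0.38, FDR 9.93e-05), with the KPC mouse of 1380 CPM well above the other KPC mice, whereas Ctsb passed the FDR but not the fold threshold at a log2 FC of -0.27 (SE 0.09, FDR 0.0168). Of 19 calpain and caspase genes 4 were up and 7 down, and Capn3, the muscle calpain mutated in a limb-girdle dystrophy, fell (log2 FC -0.98 ± 0.20, FDR 0.000963).

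**Figure D3:**
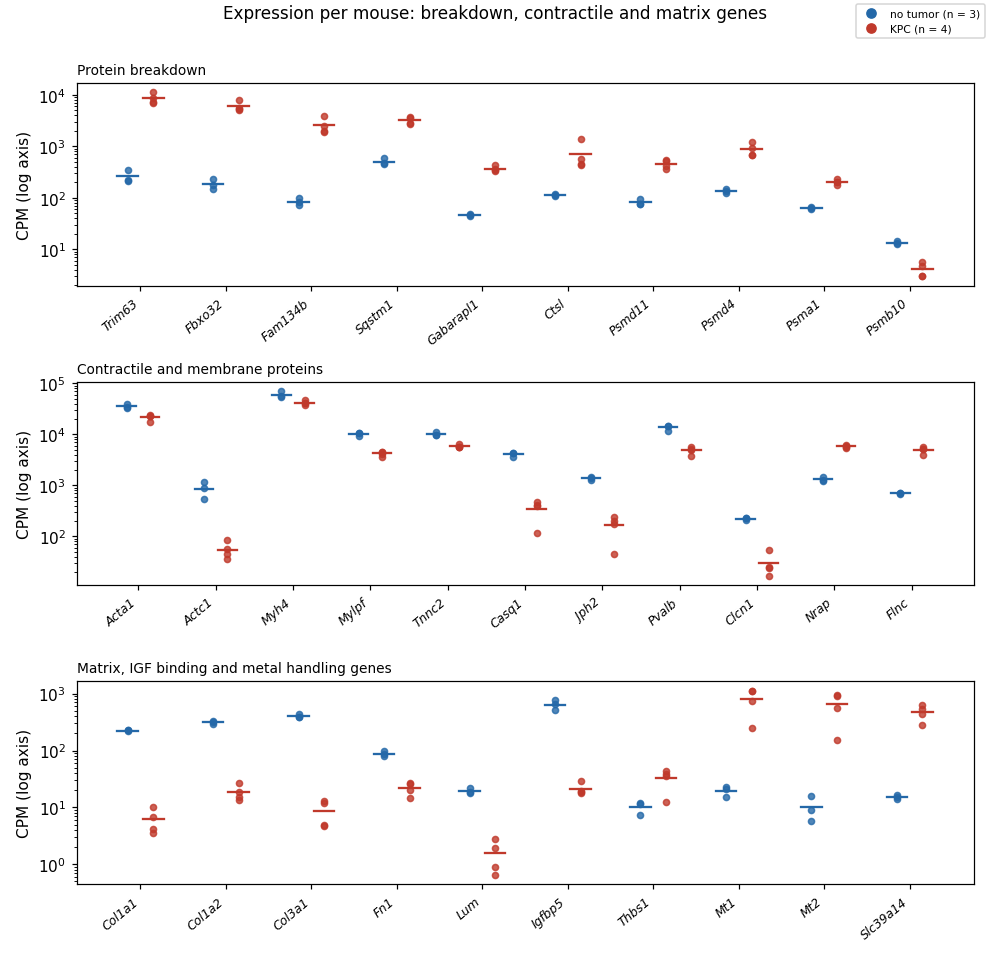
CPM of individual genes in each mouse on log axes, blue for no tumor (n = 3) and red for KPC (n = 4), with horizontal bars at the group means. In the top panel every gene but Psmb10 is higher in all KPC mice; in the middle panel Casq1, Jph2 and Actc1 fall while Nrap and Flnc rise; in the bottom panel collagens and Igfbp5 fall and Mt1, Mt2 and Slc39a14 rise.

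Genes of protein synthesis rose alongside those of breakdown. Of 75 ribosome biogenesis genes 61 were up and 1, Dkc1, was down, a call that was not made without KPC 3. Nucleolin, Ncl, had levels of 132, 131 and 150 CPM in no tumor muscle and of 532, 376, 684 and 406 CPM in KPC muscle (log2 FC 1.86 ± 0.19, FDR 1.05e-05), and every KPC mouse lay above every no tumor mouse. Of 63 translation factors 42 were up and 2 down, Eif2ak2 and Eif2ak3, which encode the kinases PKR and PERK that phosphorylate eIF2. Eif4ebp1, which encodes a repressor of cap-dependent initiation that is switched off by mTOR, had the largest rise of that list: it measured 43, 51.6 and 51.2 CPM in the no tumor mice and 859, 674, 887 and 592 CPM in the KPC mice (log2 FC 3.95 ± 0.28, FDR 1.37e-06). Elongation factor Eef2 rose with log2 FC 1.16 ± 0.17, FDR 0.000113. Aminoacyl-tRNA synthetase genes were called up in 14 of 20 cases and never down; Vars rose with log2 FC 2.26 ± 0.19, FDR 3.2e-06, and Wars had a log2 FC of 0.17 with overlapping groups. Cytosolic ribosomal protein genes were called up in 42 of 80 cases at a median log2 FC of 0.609. Their counts rest on uniquely mapped reads, and many of them have near-identical pseudogenes, so single values are uncertain. Only 19 were called up without KPC 3, and 13 when the test was against a fold change of 1.5. The 1 call down (2 without no tumor 3) was Rpl3l, the striated muscle paralog of Rpl3, with log2 FC -0.79 ± 0.15, FDR 0.000644, while Rpl3 rose (log2 FC 1.05 ± 0.16, FDR 0.000161). Amino acid transporters were mixed, with 13 of 31 up and 6 down. Slc7a5, a leucine transporter subunit, rose with log2 FC 2.40 ± 0.31, FDR 4.57e-05. The glutamine transporter gene Slc1a5 fell (log2 FC -1.90 ± 0.54, FDR 0.00789), a call that was lost without no tumor 2 (FDR 0.0661).

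Of 70 sarcomere and Z-disc genes 12 were up (17.1%, against 26.7% over all genes) and 22 down (31.4%, against 29.0%), and the list took 26.4% to 29.0% of counts in the no tumor mice and 18% to 21.6% in the KPC mice, without overlap. Among the abundant contractile proteins, Acta1 stood at 34000, 32300 and 39500 CPM without a tumor and at 23000, 23500, 17700 and 23200 CPM with a KPC tumor (log2 FC -0.69 ± 0.14, FDR 0.000833). The fast light chain Mylpf had log2 FC -1.27 ± 0.13, FDR 1.05e-05, the fast troponin Tnnc2 log2 FC -0.80 ± 0.11, FDR 6.35e-05 and tropomyosin Tpm1 log2 FC -1.08 ± 0.16, FDR 0.000109, without overlap in any of them. Myh4, the fast 2B myosin heavy chain and the most abundant myosin here, had levels of 57800, 53100 and 69600 CPM in no tumor muscle and of 46600, 42200, 37100 and 42200 CPM in KPC muscle, and passed the FDR but not the fold threshold (log2 FC -0.52, SE 0.14, FDR 0.00691), which it passed without no tumor 2. Titin, Ttn, was not called (log2 FC -0.34, FDR 0.0805). The steepest falls were in Mybph, a myosin-binding protein (log2 FC -6.34 ± 0.48, FDR 1.78e-06), in cardiac actin, Actc1, which measured 1160, 540 and 876 CPM in the no tumor mice and 83.4, 55.7, 35.5 and 44.5 CPM in the KPC mice (log2 FC -3.97 ± 0.36, FDR 4.76e-06), and in the Z-disc protein Myoz3 (log2 FC -2.96 ± 0.37, FDR 3.46e-05). Ky, a muscle protein whose loss causes kyphoscoliosis in mice, stood at 492, 536 and 599 CPM without a tumor and at 8.9, 15.5, 5.4 and 5.48 CPM with a KPC tumor (log2 FC -5.94 ± 0.38, FDR 8.58e-07).

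Other structural genes, named by the size of their rise, were higher in KPC muscle. Filamin C, Flnc, a Z-disc protein, had levels of 668, 716 and 705 CPM in no tumor muscle and of 5240, 4010, 5650 and 5200 CPM in KPC muscle (log2 FC 2.85 ± 0.17, FDR 7.92e-07). Nrap, a scaffold of myofibril assembly, measured 1210, 1260 and 1450 CPM in the no tumor mice and 6220, 6050, 5780 and 5440 CPM in the KPC mice (log2 FC 2.17 ± 0.14, FDR 9.24e-07). Ankrd2, a stretch-responsive titin-associated protein, had log2 FC 3.13 ± 0.42, FDR 6.17e-05 and desmin, Des, log2 FC 1.03 ± 0.14, FDR 6.58e-05. Of 46 genes of the dystrophin complex and costamere 14 were up and 18 down. Dystrophin itself, Dmd, rose (log2 FC 1.09 ± 0.19, FDR 0.000406) and its homolog utrophin, Utrn, fell (log2 FC -0.81 ± 0.18, FDR 0.00209). Syne1, which anchors nuclei, rose with log2 FC 3.01 ± 0.26, FDR 3.16e-06, and Ank1, whose small form ties the sarcoplasmic reticulum to the sarcomere, fell with log2 FC -2.19 ± 0.24, FDR 1.57e-05.

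Collagens had the highest share of falls of the 60 lists. Of 38 collagen genes 29 were down and 2 up, Col19a1 and Col7a1 (1 up without KPC 1), and of 54 other matrix proteins 36 were down and 4 up. Col3a1, a fibrillar collagen, stood at 396, 383 and 445 CPM without a tumor and at 12.8, 12.1, 4.96 and 4.67 CPM with a KPC tumor (log2 FC -5.56 ± 0.40, FDR 1.37e-06). Col1a1 and Col1a2, the chains of type I collagen, had log2 FC -5.17 ± 0.40, FDR 1.97e-06 and log2 FC -4.07 ± 0.29, FDR 1.37e-06. Col4a1, of basement membranes, had a log2 FC of -0.53 (FDR 0.0258) and was called only without KPC 1 or KPC 4. Fibronectin, Fn1, had log2 FC -2.01 ± 0.20, FDR 7.83e-06 and the proteoglycan lumican, Lum, log2 FC -3.63 ± 0.39, FDR 1.21e-05. The 4 matrix genes called up, named because they are few, were Cyr61, Lama5, Lox and Thbs1; Lox, the enzyme that crosslinks collagen, had log2 FC 1.32 ± 0.33, FDR 0.0038. Fibro-adipogenic progenitor and tenocyte marker sums were also lower, at 71.7 to 105 CPM against 826 to 914 CPM for the former, and their part in the result was not tested; Col1a1 and Col3a1 belong to both lists.

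Matrix proteases and inhibitors were called down in 28 of 52 cases and up in 9. Mmp2, a gelatinase of fibroblasts, fell (log2 FC -1.15 ± 0.32, FDR 0.00775), and so did the membrane-bound Mmp15 (log2 FC -3.53 ± 0.30, FDR 3e-06). Of 22 integrin genes 10 were down and 1 up, Itgb5 (log2 FC 1.05 ± 0.22, FDR 0.00143). Itga4 fell (log2 FC -4.20 ± 0.30, FDR 1.4e-06), and Itgb1, the common partner chain, had a log2 FC of 0.04 with overlapping groups.

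Genes of excitation and calcium handling were called down in 29 of 60 cases and up in 5. Calsequestrin, Casq1, the calcium buffer of the sarcoplasmic reticulum, had levels of 4310, 3640 and 4230 CPM in no tumor muscle and of 388, 465, 119 and 414 CPM in KPC muscle (log2 FC -3.55 ± 0.38, FDR 1.27e-05). Jph2, which tethers the transverse tubule to the sarcoplasmic reticulum, measured 1430, 1270 and 1410 CPM in the no tumor mice and 241, 198, 45.6 and 175 CPM in the KPC mice (log2 FC -3.05 ± 0.41, FDR 5.69e-05). In both, KPC 3 was the lowest mouse. Pvalb, the cytosolic calcium buffer of fast fibers, had log2 FC -1.49 ± 0.17, FDR 1.53e-05, and Sypl2 (mitsugumin 29) log2 FC -3.85 ± 0.36, FDR 5.57e-06. The voltage sensor Cacna1s fell (log2 FC -0.88 ± 0.13, FDR 0.0001). By contrast the release channel Ryr1 (log2 FC 0.31, FDR 0.0293) and the calcium pump Atp2a1 (log2 FC 0.33, FDR 0.0423) passed the FDR with a fold change under 1.5. The 5 members called up, named because they are few, were Cacng1, Mtm1, Mtmr14, Sln and Tmem38b.

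Ion channels were called down in 41 of 94 cases and up in 15. Clcn1, the chloride channel that sets resting excitability, stood at 226, 206 and 232 CPM without a tumor and at 24.9, 53.4, 17.1 and 24.3 CPM with a KPC tumor (log2 FC -2.89 ± 0.30, FDR 1.05e-05). Kcng4, a modifying potassium channel subunit, fell from 82.9 to 94.4 CPM to 0.54 to 1.98 CPM (log2 FC -5.91 ± 0.50, FDR 3.16e-06). The sodium channel Scn4a was not called (log2 FC -0.15). Of the neuromuscular junction list, 8 of 32 were up (25%, against 26.7% over all genes) and 10 down (31.2%, against 29.0%), near the background. Musk, the receptor that clusters acetylcholine receptors, had levels of 6.41, 6.7 and 11 CPM in no tumor muscle and of 42.6, 45, 118 and 53 CPM in KPC muscle (log2 FC 3.03 ± 0.43, FDR 7.98e-05), and Runx1, a factor known to rise on denervation, had log2 FC 4.23 ± 0.57, FDR 5.8e-05. Chrna1, the receptor subunit that classically rises on denervation, had a log2 FC of 0.29 with overlapping groups, and acetylcholinesterase, Ache, fell (log2 FC -2.78 ± 0.35, FDR 3.36e-05). Myog was called up with groups that do not overlap, but KPC 3 at 38.7 CPM stood above the other KPC mice at 5.91 to 9.35 CPM. The call was lost without KPC 3 (FDR 0.12) and without any 1 of the no tumor mice (FDR 0.0652 to 0.0814).

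Of 56 glycolysis and glycogen genes 10 were up and 20 down, and their share of counts was 6.7% to 7.37% in the no tumor mice and 4.61% to 5.97% in the KPC mice. Eno3, muscle enolase, measured 6600, 6090 and 7290 CPM in the no tumor mice and 1350, 2250, 880 and 2290 CPM in the KPC mice (log2 FC -1.98 ± 0.27, FDR 7.24e-05), and Gpd1, of the glycerol phosphate shuttle, had log2 FC -2.51 ± 0.30, FDR 2.4e-05. Pfkm, the committed step of glycolysis, and Pygm, which releases glucose units from glycogen, were not called (log2 FC -0.44 and -0.16). Ugp2, which makes the glucose donor for glycogen, rose (log2 FC 1.94 ± 0.20, FDR 1.14e-05). Pdk4, the kinase that shuts off pyruvate dehydrogenase, stood at 637, 273 and 419 CPM without a tumor and at 6000, 4550, 5010 and 5300 CPM with a KPC tumor (log2 FC 3.56 ± 0.47, FDR 4.89e-05), and Pdp1, the phosphatase that opposes it, had levels of 67.5, 63.1 and 71 CPM in no tumor muscle and of 16.4, 19.6, 3.19 and 15.8 CPM in KPC muscle (log2 FC -2.29 ± 0.43, FDR 0.000641). Both belong to a list of 42 pyruvate dehydrogenase and TCA cycle genes, of which 3 were up and 11 down. They are its largest rise and largest fall, picked among members whose groups do not overlap.

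Of 83 nuclear genes for oxidative phosphorylation none was up and 28 were down, at a median log2 FC of -0.421, with a narrow range from -1.167 to 0.456. Cox7a1, the muscle form of a complex IV subunit, had log2 FC -1.17 ± 0.22, FDR 0.000685 and Ndufs1 of complex I log2 FC -0.84 ± 0.15, FDR 0.000332. Without no tumor 2, 1 gene was called up, and a test against a fold change of 1.5 called 11 down. Mitochondrial ribosomal proteins were near no change, with 13 of 77 up (8 without KPC 3) and 15 down (median 0.014), and import and dynamics genes were called up in 21 of 59 cases and down in 6. The regulators Ppargc1b and Esrra, which drive mitochondrial genes, fell (log2 FC -2.87 ± 0.34, FDR 2.2e-05 and log2 FC -1.68 ± 0.21, FDR 3.76e-05). These are RNA values. In Western blots of quadriceps, the study reported that PGC1A and PGC1B protein did not differ between groups, and Ppargc1b encodes PGC1B. The part of these regulators in the falls above was not tested. The mitochondrial adenine nucleotide carrier Slc25a4 fell with log2 FC -0.98 ± 0.19, FDR 0.000845.

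In lipid metabolism, Cd36, the fatty acid transporter, rose (log2 FC 1.19 ± 0.24, FDR 0.00112) and Oxct1, which lets muscle burn ketone bodies, fell (log2 FC -1.70 ± 0.32, FDR 0.000596), within a list of 52 uptake and oxidation genes with 15 up and 8 down. The lipase gene Pnpla2 measured 341, 491 and 310 CPM in the no tumor mice and 1720, 1290, 2160 and 1570 CPM in the KPC mice (log2 FC 2.15 ± 0.22, FDR 1.01e-05). Scd1, which desaturates fatty acids, stood at 541, 1110 and 472 CPM without a tumor and at 174, 27.3, 16.3 and 10.1 CPM with a KPC tumor (log2 FC -3.63 ± 0.87, FDR 0.00297), with KPC 1 well above the other KPC mice. Adipocyte marker sums were 415 to 1990 CPM in the KPC mice and overlapped between groups. Their part in the Scd1 value was not tested. Cholesterol synthesis genes were called down in 14 of 26 cases and up in 2, Fdft1 and Lss (5 up without KPC 2 or with DESeq2), and Fdft1, the first committed enzyme of sterol synthesis, rose with log2 FC 2.12 ± 0.19, FDR 4.25e-06. In nucleotide metabolism, the 2 muscle AMP deaminases moved apart: Ampd1 had levels of 1190, 1140 and 1440 CPM in no tumor muscle and of 202, 274, 94.7 and 294 CPM in KPC muscle (log2 FC -2.54 ± 0.30, FDR 2.49e-05), and Ampd3, known from other forms of atrophy, measured 15.7, 16.2 and 12.6 CPM in the no tumor mice and 649, 210, 1050 and 339 CPM in the KPC mice (log2 FC 5.24 ± 0.51, FDR 6.84e-06). Nmrk2, a muscle kinase for NAD synthesis, fell with log2 FC -5.66 ± 0.41, FDR 1.37e-06 and adenylate kinase, Ak1, with log2 FC -1.71 ± 0.16, FDR 5.07e-06, while creatine kinase, Ckm, was not called (log2 FC -0.13).

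Of 56 cytokine receptor and JAK-STAT feedback genes 14 were up (25%, against 26.7% over all genes) and 20 down. Il6ra, the IL-6 binding receptor chain on chromosome 3 (89864059 to 89913196, minus strand), stood at 4.19, 5.37 and 5.23 CPM without a tumor and at 264, 125, 155 and 181 CPM with a KPC tumor (log2 FC 5.21 ± 0.37, FDR 1.37e-06), while Cntfr, the CNTF binding chain, fell from 28.3 to 35.5 CPM to 3.08 to 4.59 CPM (log2 FC -2.94 ± 0.30, FDR 8.85e-06). Il6st (gp130), the signaling chain that both share, passed the FDR (log2 FC 0.58, FDR 0.0154) at a fold change just under 1.5, and was called without no tumor 1, no tumor 3, KPC 1 or KPC 4. Socs3, the feedback inhibitor of this pathway, was not called (log2 FC 1.03, FDR 0.0673), with overlapping groups, but was called without KPC 2 (FDR 0.0448) and with DESeq2 (FDR 0.0219). Of 33 TNF superfamily genes 8 were up (5 without no tumor 3) and 12 down. The TWEAK receptor Tnfrsf12a (Fn14) had levels of 11, 11.4 and 10.1 CPM in no tumor muscle and of 82.9, 57, 65.3 and 67.5 CPM in KPC muscle (log2 FC 2.65 ± 0.20, FDR 1.89e-06). Eda2r, the receptor for ectodysplasin A2, measured 6.39, 6.49 and 10.4 CPM in the no tumor mice and 128, 125, 188 and 33.1 CPM in the KPC mice (log2 FC 3.95 ± 0.58, FDR 0.000113), the lowest KPC mouse being KPC 4. The ligand Tnfsf10 (TRAIL) fell (log2 FC -2.88 ± 0.39, FDR 6e-05).

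Of 52 TGF-beta, activin and BMP genes 15 were up and 19 down. Myostatin, Mstn, the inhibitor of muscle growth, stood at 34.4, 33 and 51.8 CPM without a tumor and at 465, 164, 106 and 323 CPM with a KPC tumor (log2 FC 2.74 ± 0.45, FDR 0.000252), and its receptor Acvr2b fell slightly (log2 FC -0.68 ± 0.23, FDR 0.0194), a call lost without no tumor 1 or KPC 1. The co-repressor Tgif1 rose (log2 FC 4.50 ± 0.49, FDR 1.46e-05) and the follistatin-like gene Fstl1 fell (log2 FC -3.10 ± 0.20, FDR 8.47e-07). Receptor tyrosine kinases were called down in 19 of 42 cases and up in 4, which were Insr, Kit, Musk and Tyro3 (7 up without no tumor 3), and Ret fell (log2 FC -2.07 ± 0.20, FDR 5.62e-06). Wnt, Notch and Hedgehog genes were called down in 32 of 64 cases and up in 7. Wnt5a, a ligand, had log2 FC -3.12 ± 0.26, FDR 2.79e-06 and Fzd9, a receptor, log2 FC -1.80 ± 0.14, FDR 1.89e-06; Rbpj, the nuclear effector of Notch, rose (log2 FC 1.09 ± 0.19, FDR 0.000339). Of 87 G protein-coupled receptors 41 were down and 7 up, among them Gpr157 up (log2 FC 1.80 ± 0.34, FDR 0.00063). Of 21 chemokine and chemokine receptor genes 9 were down and 2 up (6 up without KPC 4). Of 34 Toll-like and IL-1 genes 11 were up and 11 down (32.4% each). Tollip, an inhibitor of this pathway, had log2 FC 2.07 ± 0.18, FDR 3.42e-06 and the adaptor Tirap log2 FC -1.86 ± 0.20, FDR 1.33e-05.

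In the insulin, IGF and mTOR list 28 of 68 genes were up and 17 down. Sesn1, an inhibitor of mTOR complex 1, had levels of 24.8, 21 and 25.8 CPM in no tumor muscle and of 619, 399, 268 and 519 CPM in KPC muscle (log2 FC 4.24 ± 0.29, FDR 1.24e-06). Irs2, an adaptor of the insulin receptor, rose with overlapping groups (log2 FC 1.62 ± 0.39, FDR 0.00322), whereas Igf1, the growth factor, fell (log2 FC -1.22 ± 0.41, FDR 0.019), a call lost without no tumor 2 (FDR 0.0808). Igfbp5, an IGF binding protein, measured 648, 517 and 758 CPM in the no tumor mice and 18.6, 29.1, 19.6 and 17.6 CPM in the KPC mice (log2 FC -4.92 ± 0.22, FDR 2.26e-07), and Prkag3, the muscle subunit of AMP-activated kinase, had log2 FC -3.64 ± 0.30, FDR 2.77e-06. Secreted signals were called down in 32 of 54 cases and up in 4, which were Ctf1, Fgf9, Figf and Nampt (2 up without no tumor 3). Figf (VEGF-D) rose with log2 FC 3.56 ± 0.32, FDR 4.29e-06. Angptl2 and Il15 fell (log2 FC -3.47 ± 0.32, FDR 4.88e-06 and log2 FC -2.10 ± 0.33, FDR 0.000189).

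**Figure D4:**
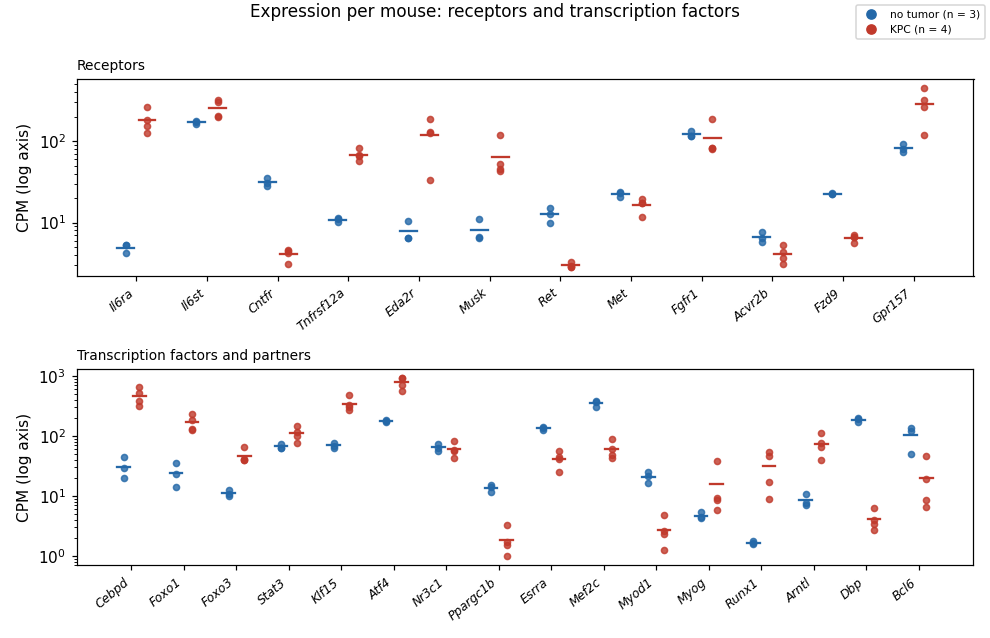
CPM of receptors (top) and transcription factors with their partners (bottom) in each mouse on log axes, blue for no tumor (n = 3) and red for KPC (n = 4), with bars at the group means. Il6ra, Tnfrsf12a, Eda2r and Musk are higher in all KPC mice, Il6st changes little, and Cebpd, Foxo1, Foxo3, Klf15 and Arntl rise while Dbp, Mef2c and Myod1 fall.

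Transcription factor families each held rises and falls. Of 45 forkhead, KLF and SOX genes 14 were up and 16 down. Foxo1, which drives the ubiquitin ligase genes, stood at 14.3, 23.1 and 35 CPM without a tumor and at 232, 128, 185 and 132 CPM with a KPC tumor (log2 FC 2.82 ± 0.32, FDR 1.81e-05), and Foxo3, its close relative, had levels of 9.97, 10.9 and 12.7 CPM in no tumor muscle and of 65.5, 40.4, 40.2 and 40.8 CPM in KPC muscle (log2 FC 2.07 ± 0.20, FDR 6.09e-06). Foxo6 fell to levels under 1 CPM in every KPC mouse (log2 FC -5.27 ± 0.48, FDR 4.76e-06). Klf15, a glucocorticoid target that promotes amino acid breakdown, rose (log2 FC 2.30 ± 0.22, FDR 6.37e-06). The bZIP factors were called up in 20 of 41 cases and down in 10. Cebpd, an acute phase factor, measured 29.1, 19.7 and 44.2 CPM in the no tumor mice and 654, 386, 316 and 513 CPM in the KPC mice (log2 FC 3.92 ± 0.53, FDR 6.46e-05). Cebpb had log2 FC 1.43 ± 0.20, FDR 7.98e-05, and Atf4, the effector of the integrated stress response, log2 FC 2.14 ± 0.18, FDR 3.05e-06. Ddit3 (CHOP), a classical target of Atf4, was called down with overlapping groups (log2 FC -0.76 ± 0.27, FDR 0.0273), and the call was lost without no tumor 1, no tumor 2, KPC 1 or KPC 2 (FDR 0.0633 to 0.132).

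The STAT, NF-kB and IRF genes were called up in 13 of 28 cases and down in 10. Stat3, which carries IL-6 signals, stood at 63.6, 63 and 74.2 CPM without a tumor and at 147, 76.9, 119 and 100 CPM with a KPC tumor (log2 FC 0.72 ± 0.19, FDR 0.00557), and was not called without KPC 1. Irf1, a factor of interferon responses, fell (log2 FC -1.39 ± 0.34, FDR 0.00362). The NF-kB inhibitor Nfkbib rose (log2 FC 2.14 ± 0.27, FDR 3.65e-05). Of the muscle identity factors, Myod1 had levels of 24.7, 21.4 and 16.6 CPM in no tumor muscle and of 1.25, 2.64, 4.79 and 2.28 CPM in KPC muscle (log2 FC -2.94 ± 0.36, FDR 3.37e-05), and Mef2c measured 363, 307 and 383 CPM in the no tumor mice and 60.8, 88.7, 42.7 and 49 CPM in the KPC mice (log2 FC -2.54 ± 0.22, FDR 3.16e-06). Mkl1, the coactivator of serum response factor, fell with log2 FC -3.71 ± 0.26, FDR 1.37e-06, and Tbx15 was not called (log2 FC -0.34).

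Clock genes were called up in 12 of 25 cases and down in 7. Dbp, an output factor of the clock, stood at 169, 190 and 199 CPM without a tumor and at 3.96, 6.33, 2.72 and 3.37 CPM with a KPC tumor (log2 FC -5.51 ± 0.28, FDR 2.65e-07). Arntl (BMAL1), the positive arm of the clock, had levels of 10.8, 7.19 and 7.58 CPM in no tumor muscle. In KPC muscle it had levels of 111, 40.3, 75.5 and 64.7 CPM (log2 FC 3.09 ± 0.34, FDR 1.51e-05). Dbp and Arntl are the largest fall and the largest rise of the list, picked among members whose groups do not overlap. Per1 rose (log2 FC 1.02 ± 0.36, FDR 0.0267; not called without KPC 1 or any 1 of the no tumor mice, FDR 0.0594 to 0.0713) and Nr1d1 was not called (log2 FC -0.24). The time of day at collection is not given in the sources used here.

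The list of glucocorticoid-induced genes had the highest median of the 60 lists, with 25 of 33 up and 1, Bcl6, down (2 down without KPC 1); it includes Trim63, Fbxo32, Foxo1, Foxo3 and Mt1, which other lists also hold. Fkbp5, a chaperone of steroid receptors, measured 28.8, 30.6 and 58.5 CPM in the no tumor mice and 716, 425, 573 and 726 CPM in the KPC mice (log2 FC 3.96 ± 0.40, FDR 9.01e-06). Cdkn1a (p21), an inhibitor of the cell cycle, stood at 17.4, 18.7 and 20.8 CPM without a tumor and at 676, 151, 666 and 481 CPM with a KPC tumor (log2 FC 4.70 ± 0.49, FDR 1.04e-05). Arrdc3, which directs receptors to degradation, had log2 FC 4.04 ± 0.39, FDR 5.98e-06. Tsc22d3 (GILZ) and Sgk1, also members, were called up with overlapping groups, at log2 FC 0.90 and 0.69 with FDR 0.0266 and 0.0405. Tsc22d3 lost its call without no tumor 1, no tumor 2, KPC 1 or KPC 3 and Sgk1 without no tumor 1, no tumor 2, KPC 1 or KPC 2, at FDR up to 0.145. The receptor gene Nr3c1 was not called, at a log2 FC of -0.10 with overlapping groups.

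Metallothioneins had the steepest rises among abundant genes, those whose log2 CPM averaged 5 or more. Mt2, which binds zinc and copper, had levels of 5.78, 9.07 and 15.9 CPM in no tumor muscle and of 963, 154, 922 and 551 CPM in KPC muscle (log2 FC 6.00 ± 0.68, FDR 1.83e-05), a 64.2-fold difference, and its neighbor Mt1 measured 15, 20.9 and 22.4 CPM in the no tumor mice and 1120, 252, 1130 and 728 CPM in the KPC mice (log2 FC 5.38 ± 0.54, FDR 7.93e-06). KPC 2 was the lowest KPC mouse in both. The zinc importer Slc39a14 (ZIP14) stood at 15, 14 and 16.8 CPM without a tumor and at 529, 285, 432 and 625 CPM with a KPC tumor (log2 FC 4.94 ± 0.26, FDR 3.56e-07), and the transferrin receptor Tfrc fell (log2 FC -4.14 ± 0.42, FDR 9.01e-06). Over the whole list of 41 genes 10 were up and 11 down, near the background.

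The promoters of Mt2 and Mt1 are shown because these neighbors on chromosome 8 rose together. Capitals mark the metal response element core, TGCACNC or TGCGCNC on either strand, with 4 matches in Mt2 (chr8:94172368-94172667, plus strand) and 3 in Mt1 (chr8:94178839-94179138, plus strand), both from RefSeq on GRCm38.p6. These short letters occur in 36.4% of all promoters, in 35.7% of those of genes called up and 35.3% of those of genes called down.
Mt2: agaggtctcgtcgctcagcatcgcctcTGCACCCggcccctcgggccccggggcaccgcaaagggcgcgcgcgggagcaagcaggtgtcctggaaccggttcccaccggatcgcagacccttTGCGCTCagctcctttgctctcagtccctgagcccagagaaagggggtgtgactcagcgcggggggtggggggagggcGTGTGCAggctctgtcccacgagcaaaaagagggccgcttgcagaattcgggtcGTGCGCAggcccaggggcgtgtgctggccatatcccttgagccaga
Mt1: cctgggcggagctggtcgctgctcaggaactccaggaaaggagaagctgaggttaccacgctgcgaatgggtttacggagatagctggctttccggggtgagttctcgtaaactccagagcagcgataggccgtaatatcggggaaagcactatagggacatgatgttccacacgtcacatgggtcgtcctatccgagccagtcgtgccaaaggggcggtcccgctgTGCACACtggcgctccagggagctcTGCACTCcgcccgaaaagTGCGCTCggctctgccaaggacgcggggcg

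Stress response genes rose in part. Of 56 unfolded protein and integrated stress response genes 24 were up and 9 down. Ppp1r15a (GADD34), which reverses eIF2 phosphorylation, had levels of 36.3, 35 and 38.2 CPM in no tumor muscle and of 771, 354, 646 and 406 CPM in KPC muscle (log2 FC 3.90 ± 0.27, FDR 1.24e-06), and the chaperone Hspa5 (BiP) had log2 FC 1.05 ± 0.20, FDR 0.000566. Of 91 heat shock and chaperone genes 35 were up and 17 down. The small heat shock protein genes Hspb1 and Hspb7 rose (log2 FC 2.87 ± 0.30, FDR 1.15e-05 and log2 FC 2.97 ± 0.28, FDR 6.1e-06), whereas Hspb2 and Hspb3, looked up after their values were seen, fell (log2 FC -1.41 and -1.79). The inducible Hspa1b fell (log2 FC -2.19 ± 0.45, FDR 0.0011), although its levels were low in both groups. Of 60 NRF2 and antioxidant genes 23 were up and 11 down, Gclc rising with log2 FC 1.13 ± 0.15, FDR 6.06e-05 and Nqo1 with log2 FC 0.89 ± 0.23, FDR 0.00518.

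The acute phase protein gene Lcn2 measured 0.623, 0.745 and 0.768 CPM in the no tumor mice and 62.8, 15.4, 105 and 34.7 CPM in the KPC mice (log2 FC 6.27 ± 0.91, FDR 9.73e-05), and Serpina3n stood at 2.79, 5.08 and 4.15 CPM without a tumor and at 98.8, 29, 50.1 and 17.6 CPM with a KPC tumor (log2 FC 3.61 ± 0.61, FDR 0.000277). Across the acute phase and complement list, however, 7 of 36 were up (19.4%) and 14 down (38.9%; 8 down without no tumor 2), at a median log2 FC of -0.383, and C3 was not called. Neutrophil marker sums were higher too, at 4.5 to 21.8 CPM against 0.359 to 0.779 CPM. The 4 markers behind these sums may be in the table only through the KPC libraries. Sums of the 2 erythroid markers in the table were higher as well, at 6.15 to 20 CPM against 1.95 to 2.61 CPM. Of 6 hepatocyte markers only Alb was in the table, and it was called up with overlapping groups, at 97.3 CPM in KPC 4 and 0.655 to 1.08 CPM in the other KPC mice against 0.398 to 1.16 CPM without a tumor. The part of these cells in the Lcn2 and Serpina3n values was not tested. Of 63 interferon-induced genes 43 were down and 4 up. Gbp7, a guanylate-binding protein, had levels of 21.7, 15.8 and 14.3 CPM in no tumor muscle and of 1.22, 3.47, 1.31 and 1.69 CPM in KPC muscle (log2 FC -3.17 ± 0.38, FDR 2.41e-05). The 4 rises, named because they are few, were Ifi30, Ifitm1, Isg20 and Trim25, and Ifi30, a lysosomal thiol reductase, had log2 FC 3.64 ± 0.55, FDR 0.000137. Antigen presentation genes were called down in 21 of 31 cases and up in 1, H2-K2, which resembles its neighbor H2-K1 closely enough that reads between them may be misassigned. B2m, the light chain of class I molecules, fell (log2 FC -1.0 ± 0.24, FDR 0.00339), as did Cd74, the class II invariant chain (log2 FC -1.46 ± 0.28, FDR 0.000629). Macrophage marker sums were 67.6 to 99.8 CPM in the no tumor mice and 30.7 to 131 CPM in the KPC mice, overlapping, and their part in these falls was not tested. KPC 2 was the least changed of the KPC mice, with a median of -0.588 over the interferon list against -1.759 to -1.559 in the others.

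The promoter of Gbp7 is shown as an example from the interferon list. Capitals mark the core GAAANNGAA of the interferon response element, read here on the minus strand, with 1 match (RefSeq, GRCm38.p6, chr3:142530086-142530385, plus strand). Of 43 promoters matched for the interferon list 26 held these letters (60.5%), against 7.14% of all promoters, 7.27% of those of genes called up and 7.66% of those of genes called down. This share was picked from 780 shares (13 motifs in 60 lists) after they were seen and is a description. Of the 13 motifs searched, the largest gap between genes called up and down, in percentage points, was that of the E-box CACGTG, with 12.4% and 8.02%.
Gbp7: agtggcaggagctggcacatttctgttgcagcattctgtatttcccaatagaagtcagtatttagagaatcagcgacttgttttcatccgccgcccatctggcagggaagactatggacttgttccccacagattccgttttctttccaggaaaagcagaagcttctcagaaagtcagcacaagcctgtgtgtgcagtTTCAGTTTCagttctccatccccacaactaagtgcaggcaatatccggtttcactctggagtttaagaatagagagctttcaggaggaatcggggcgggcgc

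Cell cycle genes were called down in 27 of 64 cases and up in 15. Cyclin D1, Ccnd1, fell (log2 FC -3.95 ± 0.32, FDR 2.32e-06). Mki67 was at or below 1.54 CPM in every mouse. Satellite cell and regeneration genes were called down in 18 of 43 cases and up in 7 (4 without no tumor 2 or no tumor 3); Pax7, the stem cell factor of muscle, measured 2.84, 2.02 and 2.87 CPM in the no tumor mice and 0.601, 0.599, 0.573 and 0.546 CPM in the KPC mice (log2 FC -2.14 ± 0.19, FDR 4.42e-06), and embryonic myosin, Myh3, was not called (log2 FC -0.24). Among 6 satellite cell markers, 3 were down-regulated, Pax7 with them, and 1, Cdh15, was up-regulated. The summed level of the 6 did not fall, at 32.6 to 37 CPM in the no tumor mice and 36 to 64.7 CPM in the KPC mice, overlapping. Calls up outnumbered calls down among RNA processing and chromatin genes. Of 131 splicing genes 65 were up and 9 down, with Rbm34 at log2 FC 2.30 ± 0.20, FDR 3.64e-06, and of 119 chromatin modifying enzymes 52 were up and 19 down. Hdac4, a repressor of muscle gene programs that responds to denervation, rose (log2 FC 1.73 ± 0.35, FDR 0.000966), and Arid5a, which stabilizes inflammatory transcripts, stood at 7.38, 8.11 and 4.35 CPM without a tumor and at 128, 47.5, 42.3 and 134 CPM with a KPC tumor (log2 FC 3.71 ± 0.49, FDR 5e-05).

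The 4 KPC mice shared the direction of the leading lists but not always the size. The median over glucocorticoid-induced genes ran from 1.883 to 2.797 and that over the proteasome from 1.316 to 1.97 on the log2 scale relative to the no tumor mean. Collagens ran from -2.525 to -1.786. In each of these lists every KPC mouse was outside the range of the no tumor mice, but the lists were picked for extreme medians in these same mice. Lists with smaller medians separated too, such as integrins, at -0.778 to -0.515 in the KPC mice and -0.021 to 0.056 in the no tumor mice. For the clock list the KPC mice ran from 0.089 to 0.806, and for dystrophin complex genes from -0.129 to 0.0.

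**Figure D5:**
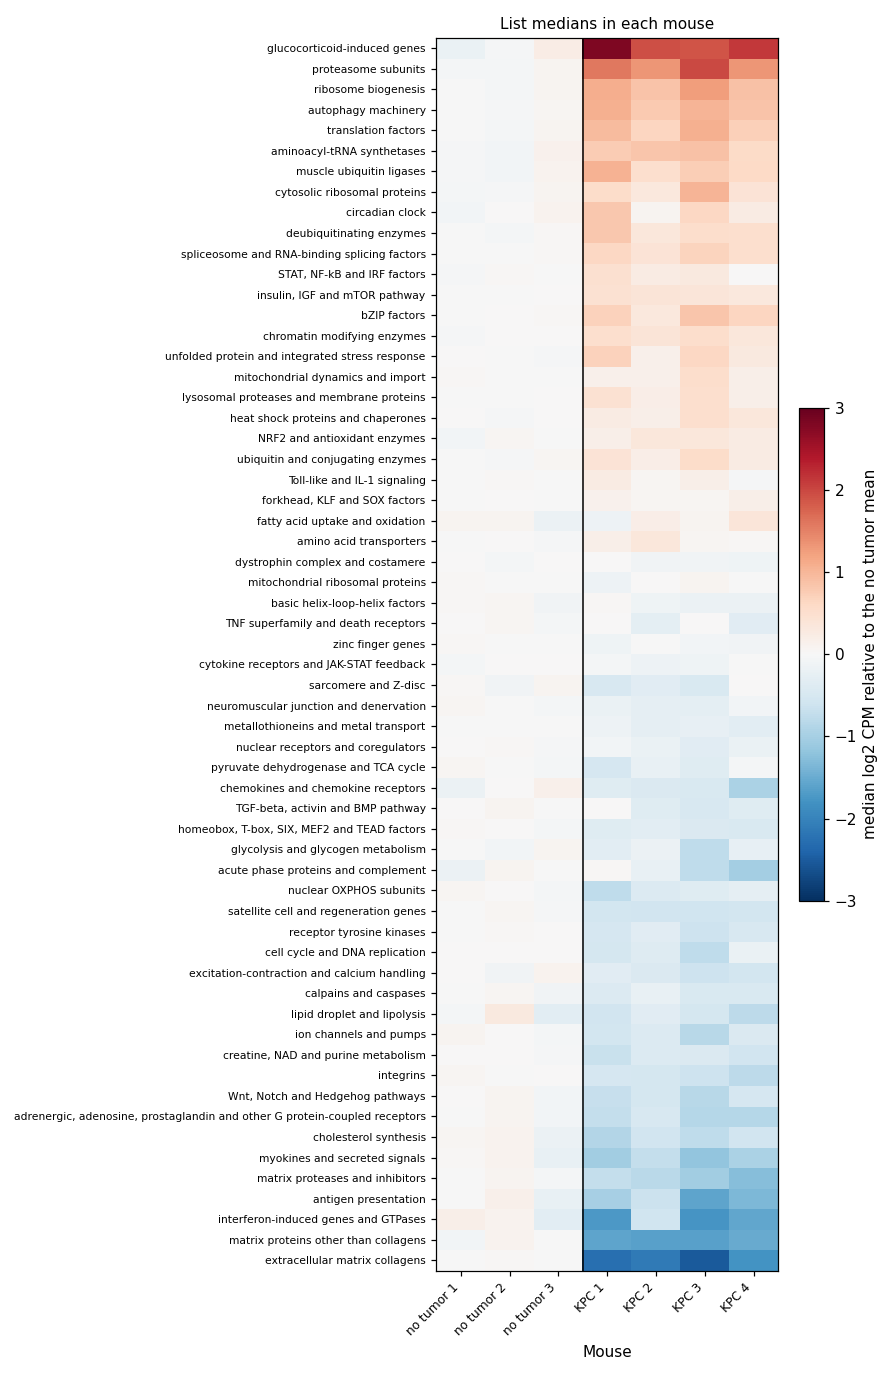
Median log2 CPM of each list's members relative to the no tumor mean, for the 3 no tumor and 4 KPC mice (columns; color scale in log2 units, red higher and blue lower). The top rows are red and the bottom rows blue in all 4 KPC mice, with KPC 2 paler in the interferon row, and the middle rows are near 0.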

How the data were processed

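RNA from quadriceps was sequenced as strand-specific paired reads. According to the study's methods, the authors aligned reads to mm10 with STAR and kept uniquely mapped reads. The submitters' processing notes name featureCounts 1.5.1 and edgeR 3.12.1. The deposited values are raw counts per gene, 1 column per mouse, without normalization. The label names a kit, TruSeq RNA Access, that differs from the one in the methods, TruSeq Nano DNA. The deposited adipose table was not used.

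The 12831 genes were tested with edgeR 4.0.16 (R 4.3.3): trimmed mean of M values (TMM) scaling, filterByExpr (which removed 0 genes), glmQLFit and glmQLFTest on all 11 quadriceps libraries, contrast KPC minus no tumor, Benjamini-Hochberg adjustment. The common dispersion of 0.0517, estimated over all 11 quadriceps libraries together, corresponds to 22.7% variation between mice of a group. It is a pooled value and not the spread of the KPC mice alone. CPM values are TMM-scaled. List medians per mouse use log2(CPM + 0.1). No pair of libraries within a group agreed within sampling noise, and each counts as 1 mouse. The fitting script was tested on simulated data. Gene positions come from GENCODE vM21 (GRCm38, the mm10 build) by symbol, and promoters from RefSeq (GRCm38.p6), matched for 9757 genes (76.0%), 1 start per gene.

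The groups, lists and genes were chosen with earlier results of these data known, so counts are descriptions. Genes named in the text are each list's key genes, its largest non-overlapping rise and fall where log2 CPM averaged 1 or more, the 15 largest rises and 15 largest falls where it averaged 5 or more, and the 15 largest gains and 15 largest losses of mean CPM, plus members of small counts, named after their values were seen; a few genes that this rule names are not reported here. Of 19 pairs of a gene and a motif tried, 3 had no promoter in the table and 11 no match, and the 4 promoters printed were picked from the other 5 after the matches were seen. Motif shares quoted were picked from 13 motifs in 60 lists. After the table was read, 3 name patterns that caught unrelated genes were corrected. Alternatives were DESeq2 1.42.0, the likelihood ratio test, glmTreat, other filters and scaling, thinning, a replicate block and leaving out each mouse.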

Additional observations from a re-analysis of the deposited data

Results flagged for a closer look

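Among the KPC mice, 11 of 349 values tested had 1 mouse far from the other 3 by Dixon's gap test (gap to the nearest mouse divided by the range), and chance alone flags about 1 in 20 groups. KPC 3 was the lone mouse for Acta1 (17700 CPM against 23000 to 23500), Casq1 (119 against 388 to 465 CPM) and Pdp1 (3.19 against 15.8 to 19.6 CPM). KPC 2 was the lone mouse for Atp6v1h (74.2 against 120 to 131 CPM), Capn15 (14 against 26.6 to 29.8 CPM), Hsp90aa1 (32.6 against 50.5 to 54.5 CPM), Thbs1 (12.7 against 35.9 to 43 CPM) and Fgfr1 (186 against 79.1 to 83.2 CPM). KPC 1 was the lone mouse for Foxo3 (65.5 against 40.2 to 40.8 CPM). Over whole lists, KPC 3 had a median of 0.527 for mitochondrial dynamics and import against 0.159 to 0.172 in the other KPC mice, and KPC 2 a median of -0.588 for interferon-induced genes against -1.759 to -1.559, in log2 units relative to the no tumor mean. The groups of 3 no tumor mice are too small for this test.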

How the results depend on the processing

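Counts of genes called stayed within 1.5 times of 3428 up and 3719 down in every alternative run: 3648 and 3606 with DESeq2, 3605 and 3572 with relative log expression (RLE) normalization, 3468 and 3786 with the likelihood ratio test, 2465 and 2650 with glmTreat against a fold change of 1.5, 3428 and 3719 without a low-count filter, 3176 and 3432 with at least 10 counts in every library, 3437 and 3382 when the fit held just these 7 libraries, 3339 and 3626 after thinning to the smallest library, and 3273 to 3618 up and 3355 to 3905 down without 1 mouse at a time. Adding the replicate number as a block gave 3342 up and 3701 down. The numbers name different mice, and same-numbered KPC and no tumor mice correlated at -0.155, 0.265 and 0.0981 in their deviations, so the number was not treated as a pairing. Counts within lists changed by over 1.5 times in 58 cases, 32 of them with glmTreat, which is stricter by construction and lost 29 calls of named genes, Acta1, Nqo1, Rpl3l, Utrn, Dkc1 and Stat3 among them. Its counts, after those of the report, were for calls up ubiquitin and conjugating enzymes (17 and 11), cytosolic ribosomal proteins (42 and 13), extracellular matrix collagens (2 and 1), mitochondrial ribosomal proteins (13 and 7), cholesterol synthesis (2 and 1), nuclear receptors and coregulators (9 and 4), STAT, NF-kB and IRF factors (13 and 6), homeobox, T-box, MEF2 and related factors (17 and 9), zinc finger genes (91 and 58), TNF superfamily and death receptors (8 and 3), Toll-like and IL-1 signaling (11 and 5), Wnt, Notch and Hedgehog pathways (7 and 4), adrenergic, adenosine, prostaglandin and other G protein-coupled receptors (7 and 2), chemokines and chemokine receptors (2 and 1), myokines and secreted signals (4 and 2) and satellite cell and regeneration genes (7 and 4), and for calls down deubiquitinating enzymes (8 and 4), autophagy machinery (5 and 2), cytosolic ribosomal proteins (1 and 0), translation factors (2 and 1), ribosome biogenesis (1 and 0), pyruvate dehydrogenase and TCA cycle (11 and 6), nuclear OXPHOS subunits (28 and 11), fatty acid uptake and oxidation (8 and 5), forkhead, KLF and SOX factors (16 and 9), cytokine receptors and JAK-STAT feedback (20 and 13), Toll-like and IL-1 signaling (11 and 7), TGF-beta, activin and BMP pathway (19 and 12), acute phase proteins and complement (14 and 6), NRF2 and antioxidant enzymes (11 and 4), heat shock proteins and chaperones (17 and 11) and spliceosome and RNA-binding splicing factors (9 and 5). With at least 10 counts in every library, cytosolic ribosomal proteins had 2 calls down (1 in the report), chemokines 1 up (2), myokines 2 up (4) and acute phase genes 4 up (7). After thinning, translation factors had 1 call down (2). Cholesterol synthesis had 5 calls up with DESeq2 and 4 with RLE (2). Chemokines had 6 calls up without KPC 4 and 1 without no tumor 1, no tumor 2, KPC 1 or KPC 3.

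List medians moved by more than the spread between mice in 57 cases, found with DESeq2, RLE, the filter of 10 counts, thinning, the replicate block and each left-out mouse, and the cause was not tested. With at least 10 counts in every library they were 0.106 for basic helix-loop-helix factors, -0.04 for cytokine receptors, 0.15 for TNF genes, -0.343 for Wnt, Notch and Hedgehog genes and -0.368 for satellite cell genes. After thinning they were 0.133 for forkhead, KLF and SOX factors, -0.723 for chemokines and -0.333 for satellite cell genes. With the replicate block they were -1.671 for matrix proteins other than collagens, 0.115 for forkhead, KLF and SOX factors, 0.448 for insulin, IGF and mTOR genes and -0.384 for satellite cell genes. With DESeq2 and RLE they were -0.052 and -0.053 for zinc finger genes and -0.381 with both for satellite cell genes. Without 1 mouse at a time the lists that moved were calpains and caspases (-0.566 to -0.355), dystrophin complex and costamere (-0.051 to 0.068), extracellular matrix collagens (-2.548 to -2.157), matrix proteins other than collagens (-1.659 to -1.465), matrix proteases and inhibitors (-1.116 to -0.897), excitation-contraction and calcium handling (-0.564 to -0.32), neuromuscular junction and denervation (-0.227 to -0.062), creatine, NAD and purine metabolism (-0.593 to -0.415), mitochondrial dynamics and import (0.185 to 0.446), nuclear receptors and coregulators (-0.244 to -0.09), STAT, NF-kB and IRF factors (0.379 to 0.556), forkhead, KLF and SOX factors (0.111 to 0.212), basic helix-loop-helix factors (-0.165 to 0.093), zinc finger genes (-0.143 to -0.052), cytokine receptors and JAK-STAT feedback (-0.163 to -0.009), insulin, IGF and mTOR pathway (0.417 to 0.523), receptor tyrosine kinases (-0.531 to -0.401), Wnt, Notch and Hedgehog pathways (-0.656 to -0.452), adrenergic, adenosine, prostaglandin and other G protein-coupled receptors (-0.805 to -0.577), chemokines and chemokine receptors (-0.637 to -0.125), myokines and secreted signals (-1.198 to -0.902), metallothioneins and metal transport (-0.276 to -0.185), NRF2 and antioxidant enzymes (0.225 to 0.397), cell cycle and DNA replication (-0.684 to -0.373) and satellite cell and regeneration genes (-0.576 to -0.392).

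Genes that changed sign were all uncalled genes near 0. Myh3 went to 0.021 after thinning, Adamts1 to -0.01 with the replicate block, Mbnl1 to 0.006 with DESeq2 and 0.007 with RLE, Hk2 to -0.083 with the block, and Itgam to -0.026 with at least 10 counts and -0.069 after thinning. Without 1 mouse at a time the signs also changed for Myh3 (-0.817 to 0.341), Adamts1 (-0.135 to 0.198), Nr3c1 (-0.292 to 0.026), Notch1 (-0.082 to 0.273), Mbnl1 (-0.259 to 0.129), Plin2 (-0.506 to 0.15), Hk2 (-0.359 to 0.325), Itgam (-0.176 to 0.198) and Itgb1 (-0.01 to 0.1).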
